A study of Mus musculus with 12 samples.

Results

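The genes of fatty acid oxidation in mitochondria and peroxisomes were followed in mouse fat grafts. The set has 40 genes, taken by symbol from a table of 19547 genes, and all 40 were measured and tested. The grafts were adipose tissue from wild type C57BL/6 mice aged 16 weeks, profiled at week 8 of grafting, with 4 libraries in each of 3 groups. CAL_Dll4i grafts received added ASC (adipose-derived stem or stromal cells, by the usual meaning of the abbreviation) together with Dll4 inhibition, CAL grafts received added ASC alone, and control grafts received neither. The labels do not give the means by which Dll4, a Notch ligand of endothelial cells, was inhibited. They also do not tie libraries to separate animals, so every p-value here reflects the spread among these libraries alone, which may be technical.

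Fatty acids are first joined to coenzyme A, and long chains then enter mitochondria as carnitine esters. Inside, a repeated cycle of dehydrogenation, hydration, a further dehydrogenation and thiolysis releases acetyl-CoA, with electrons passed to the respiratory chain through flavoproteins. Peroxisomes run a parallel cycle on very long and branched chains, with their own transporters and enzymes. White fat mainly stores and releases fatty acids, and brown fat burns them for heat. Many of the genes are known targets of the nuclear receptors PPARα and PPARγ.

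Total counts ran from 55883051 to 70804141 per library, and a member's count in a library ran from 330 to 27568. Libraries correlated across genes at r = 0.973 to 0.988 within groups and 0.968 to 0.988 between groups, over genes that are not independent replicates. The biological coefficient of variation was 0.237. Dll4 itself ran from 3.98 to 4.95 CPM (counts scaled to a common library size) in CAL_Dll4i, 3.01 to 4.22 in CAL and 4.97 to 6.95 in control, and its RNA level does not measure the inhibition. The 6 measured skeletal muscle markers summed to 659 CPM in CAL_Dll4i replicate 3, 175 and 403 CPM in CAL replicates 1 and 2, against 3.05 to 17.5 in the other 9 libraries. Keratinocyte markers (4 genes) summed to 2.12 to 469 CPM in CAL_Dll4i, 4.08 to 75.03 in CAL and 3.72 to 243 in control. The 17 measured adipocyte markers, such as Adipoq and Plin1, were present in every library and summed to 2628 to 3201 CPM in CAL_Dll4i, 3276 to 4350 in CAL and 1724 to 3149 in control. Macrophage markers (8 genes) summed to 4032 to 4684 CPM in CAL_Dll4i, 3966 to 4633 in CAL and 4072 to 4460 in control. Stromal markers (6 genes) summed to 3109 to 3474, 2550 to 3257 and 2510 to 3153 CPM in the same groups. Endothelial markers (6 genes) summed to 348 to 421, 288 to 457 and 366 to 436 CPM. Of the 7 brown fat markers, Ucp1 and Elovl3 were not among the genes given by symbol, and the 5 that were measured summed to at most 30.7 CPM.

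The pathway was well represented in the grafts. Levels between genes were compared as the deposited TPM, which is scaled for transcript length and depth. The libraries were made by exon capture, and this scaling does not correct for differences in capture between genes. The members summed to 3996 TPM on average over the 12 libraries, and the median member stood at percentile 86.0 to 88.4 of all genes in a library. That percentile was taken over the 19547 genes of the table. No gene of the table had a count of 0 in any library, so undetected genes are outside this ranking. Levels of 17 members were over 100 TPM and those of 7 were under 25 TPM. Etfa, a subunit of the electron transfer flavoprotein that collects electrons from the acyl-CoA dehydrogenases, had the highest level at 257 TPM (range 229 to 321 over 12 libraries). It was followed by Acadl, the long chain acyl-CoA dehydrogenase, at 231.5 TPM, and by Hadha, the α subunit of the trifunctional protein, at 219.9 TPM. Hsd17b4, the peroxisomal D-bifunctional protein, came next at 218 TPM, and the ranges of these 4 genes overlapped. At the low end were Ehhadh, the peroxisomal L-bifunctional enzyme, at 20.4 TPM, Acad10 at 8.15 TPM and Cpt1b, the muscle form of carnitine palmitoyltransferase 1, at 6.72 TPM.

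**Figure D1:**
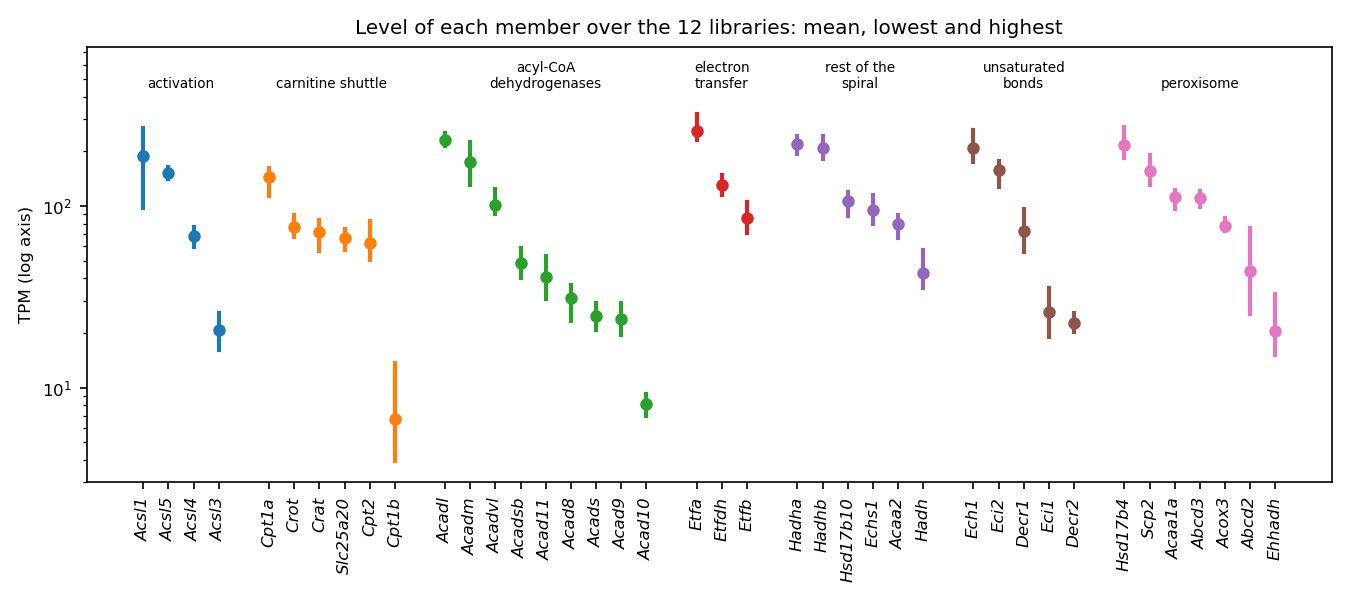
Level of each of the 40 members in TPM on a log axis, by step of the pathway; points are means of 12 libraries and lines run from the lowest to the highest library. Etfa has the highest mean (257 TPM) and Cpt1b the lowest (6.72 TPM), and lines are longest for Cpt1b, Abcd2 and Acsl1.

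Promoter sequence of a few members is shown because these genes had among the smallest p-values below, or because a pair shares the region. RefSeq promoters (GRCm38.p6, the assembly of mm10) were matched by symbol for 33 members, as 35 promoters of 250 bases before the start. Acadm, the medium chain acyl-CoA dehydrogenase, holds AGGTCA, the core motif of many nuclear receptors, read on the opposite strand and shown in capitals, 249 to 244 bases before its start (chr3:153944644-153944893, minus strand).
Acadm: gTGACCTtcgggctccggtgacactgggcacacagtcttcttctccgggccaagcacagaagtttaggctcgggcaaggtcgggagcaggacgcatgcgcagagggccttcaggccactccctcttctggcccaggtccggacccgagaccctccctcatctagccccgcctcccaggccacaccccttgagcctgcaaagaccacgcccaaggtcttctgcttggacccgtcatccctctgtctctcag
Ehhadh holds a GC box (GGGCGG) on each strand and a CCAAT box on the opposite strand, in capitals, and no AGGTCA (chr16:21787835-21788084, minus strand).
Ehhadh: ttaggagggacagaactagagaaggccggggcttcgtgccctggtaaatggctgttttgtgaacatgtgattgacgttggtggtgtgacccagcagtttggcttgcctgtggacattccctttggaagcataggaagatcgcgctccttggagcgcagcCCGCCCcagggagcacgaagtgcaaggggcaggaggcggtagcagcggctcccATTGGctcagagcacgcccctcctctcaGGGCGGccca
Hadha and Hadhb encode both subunits of the trifunctional protein and are transcribed away from each other from a common interval of 272 bases between their RefSeq starts. A stretch of 85 bases of it, outside the annotated exons of both genes, holds 2 GC boxes, in capitals (chr5:30155163-30155247, plus strand).
Hadha and Hadhb: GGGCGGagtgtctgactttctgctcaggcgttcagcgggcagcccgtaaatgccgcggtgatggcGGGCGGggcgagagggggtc

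The motif of PPAR and RXR pairs, a direct repeat of AGGTCA with 1 base between (DR1), was searched on both strands. It was found in 0 of the 35 member promoters and in 0.033% of all 32851 RefSeq promoters of the same length. With AGGNCA in both repeats it was again in 0 of 35, against 0.338% of all promoters. The extended motif TNAAGGTCA was in 0 of 35 and 1.138% of all. AGGTCA, which the strict DR1 and the extended motif contain, was in 5 of 35 member promoters (14.286%), against 14.024% of all. GC boxes were in 25 of 35 (71.429%), against 32.742% of all, CCAAT in 15 (42.857%), against 33.85%, and TATAAA in 0, against 12.368%. Member promoters had a median GC content of 59.6% and 14 CpGs, against 52.4% and 6 over all promoters. These are matches of letters in a short window, and nothing about binding follows from them. The GC, CCAAT and TATA motifs and AGGTCA alone were added after the data had been seen.

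CAL against control asks what added ASC go with in the graft. Most members had slightly higher estimates in CAL grafts, and none passed edgeR's test. The smallest p-values were those of Acad11, Hsd17b4, Ehhadh and Acadm, and the highest estimates those of Abcd2, Ehhadh and Acsl1. The median log2 fold change over the 40 members was 0.10, beside -0.01 over all 18551 genes tested. Above 0 were 32 of the 40 estimates, where 8980 of the 18551 genes were. With edgeR's quasi-likelihood test and Benjamini-Hochberg adjustment, 0 of 40 members were called at an adjusted p under 0.05, where 0.00539% of all genes were, and the smallest adjusted p of a member was 0.166. At an unadjusted p under 0.05, 7 members (17.5%) were higher, where 7.01% of all genes were. In the lower direction the count was 0 of 40 members, where 7.57% of all genes were lower. The libraries did not overlap between groups for 4 members higher in CAL (10%), namely Hsd17b4, Acad8, Acad10 and Acad11, where 3.61% of all genes stood so, and for 0 members lower, where 3.75% did. DESeq2 called 4 members higher (Acad11, Ehhadh, Hsd17b4 and Acadm; 10%), where it called 1.99% of genes higher, and voom with sample weights called Acad11 alone (2.5%), where it called 0.372%.

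The count of 7 was 14 with voom and 17 without control replicate 3, and 5 to 9 without any other library. The median was 0.06 without control replicate 4 and 0.07 without CAL replicate 4. The estimates of all 17 adipocyte markers were positive in CAL against control, at a median of 0.88 on the log2 scale. At an unadjusted p under 0.05, 13 were higher, where 7.01% of all genes were. For 7 markers all CAL libraries lay above all control libraries, where 3.61% of all genes stood so. Of the 17, edgeR called 0 and DESeq2 called Lpl, Car3 and Plin4, where it called 1.99% of genes higher. The part of adipocyte RNA in the members' values was not tested. In such bulk libraries, more cells of a type and more RNA per cell cannot be told apart.

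CAL_Dll4i against CAL asks what Dll4 inhibition goes with when ASC are present. Most members had slightly lower estimates in CAL_Dll4i grafts, and none passed the test. The smallest p-values were those of Acaa1a, Hsd17b4, Ehhadh and Acad11, and the lowest estimates those of Abcd2, Acsl1 and Ehhadh. The median log2 fold change was -0.12, beside 0.00 over all genes. Below 0 were 36 of 40 estimates, where 9041 of the 18551 genes tested were. The exceptions among the members were Cpt1a, Cpt1b, Eci2 and Acox3. edgeR called 0 members and 0% of all genes at an adjusted p under 0.05, with a smallest adjusted p of 0.659 for a member. DESeq2 and voom called 0 members, where DESeq2 called 0% of genes higher and 0.0054% lower and voom called 0%. At an unadjusted p under 0.05, 8 members (20%) were lower, where 2.95% of all genes were, and 0 were higher, where 4.47% were. The groups did not overlap for 7 members lower in CAL_Dll4i (17.5%), namely Acads, Eci1, Acsl1, Acad10, Acad11, Etfb and Acaa1a, where 1.76% of all genes stood so, and for 0 members higher, where 1.58% did.

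The count of 8 rested on single libraries: it was 2 without CAL replicate 4, 3 without CAL_Dll4i replicate 1, 3 without CAL_Dll4i replicate 4 and 5 without CAL_Dll4i replicate 3. It was 8 to 12 without any other library and 13 when these 2 groups were fitted alone. Without CAL replicate 4 the median was -0.07. This comparison shares the CAL libraries with the one before, so a high CAL library moves both, in opposite directions. All 17 adipocyte markers had negative estimates here, with a median of -0.65. Of these, 1 (Lipe) had an unadjusted p under 0.05, where 2.95% of all genes were lower. A further count, of markers with CAL_Dll4i libraries all below the CAL libraries, was 9, where 1.76% of all genes stood so. In this comparison the part of adipocyte RNA was again not tested.

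CAL_Dll4i against control sets grafts with both agents beside grafts with neither, and estimates were on both sides of 0. Of the members, 16 had estimates above 0 and 24 below, where 9205 and 9346 of the 18551 genes tested did. The median log2 fold change of the members was -0.02, beside 0.00 over all genes. It was 0.02 with voom and 0.02 without control replicate 3, so no direction is given. edgeR, DESeq2 and voom called 0 members, and edgeR and voom called 0% of all genes. DESeq2 called 0.287% of genes higher and 0.0631% lower. At an unadjusted p under 0.05 the count was 1 lower (Acsl4, 2.5%), where 3.06% of all genes were lower, and 0 higher, where 3.86% were. The groups did not overlap for 0 of 40 members in either direction, where 2.41% of all genes stood higher and 2.35% lower. Of the adipocyte markers, 15 of 17 had positive estimates, with a median of 0.29.

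**Figure D2:**
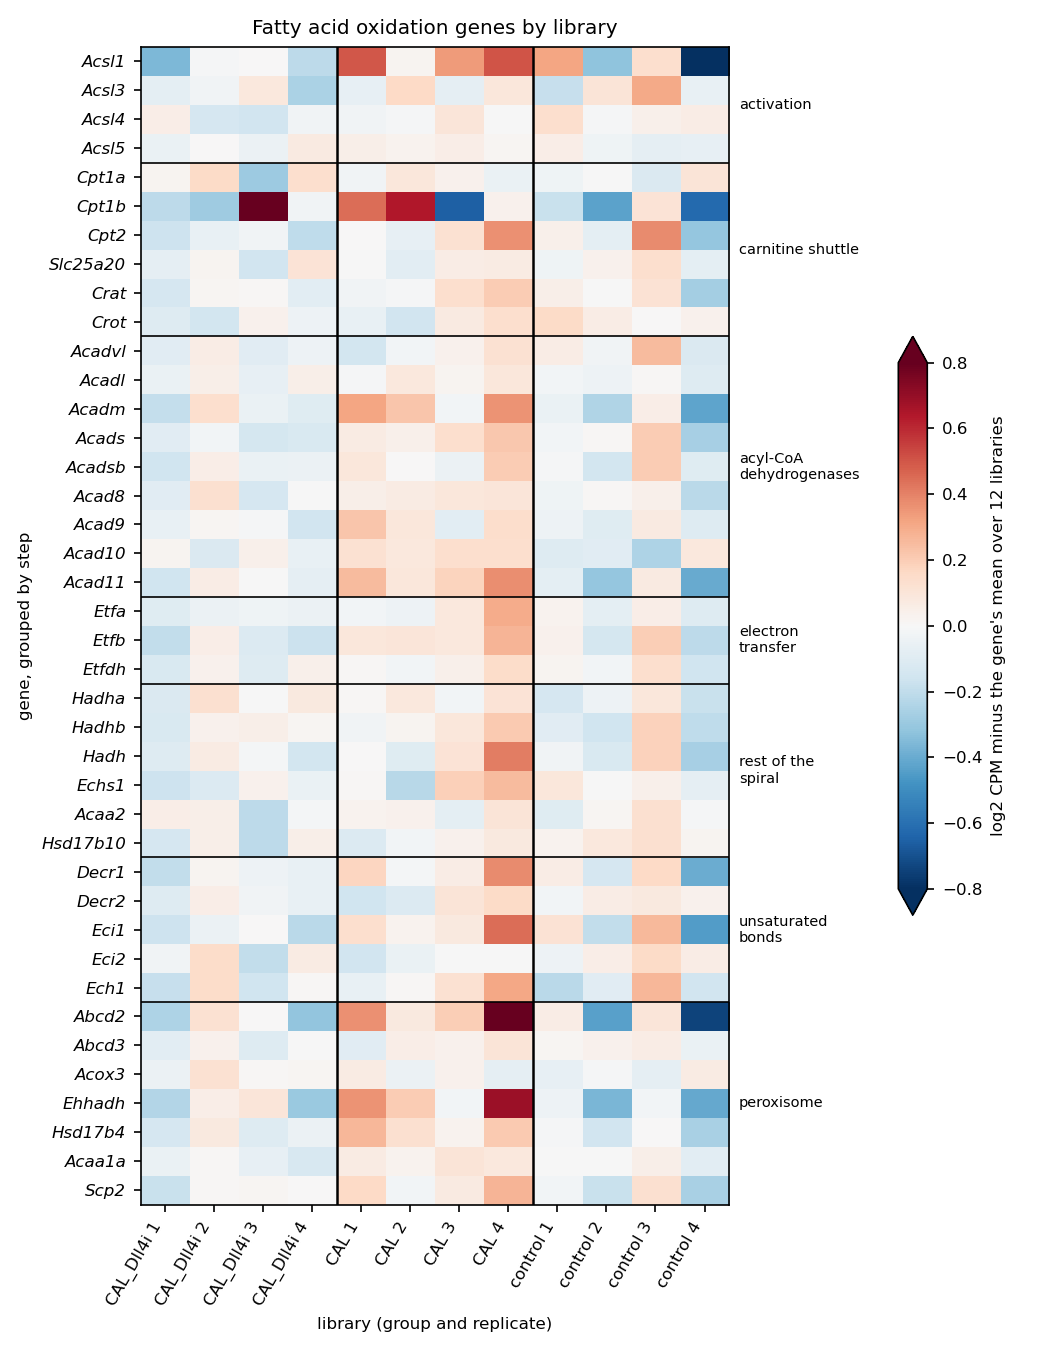
Log2 CPM of each member minus its mean over the 12 libraries, with columns for CAL_Dll4i, CAL and control libraries and rows by step. CAL replicate 4 has 36 of 40 members above their mean, CAL_Dll4i replicate 1 has 4 and control replicate 4 has 8.

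Libraries of a group differed among themselves across most of the pathway. CAL replicate 4 had the highest value of 21 members, and control replicate 4 had the lowest of 20. The number of members above their own 12-library mean was 4, 29, 13 and 12 in CAL_Dll4i replicates 1 to 4, 25, 24, 31 and 36 in CAL and 16, 10, 35 and 8 in control. Control replicate 3 was in the range of the CAL libraries, and CAL_Dll4i replicate 2 was well above the rest of its group. The summed CPM of the 40 members was 3748, 4185, 3898 and 3985 in CAL_Dll4i, 4324, 4152, 4277 and 4687 in CAL, and 4102, 3824, 4293 and 3582 in control. These sums overlapped between all 3 groups.

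**Figure D3:**
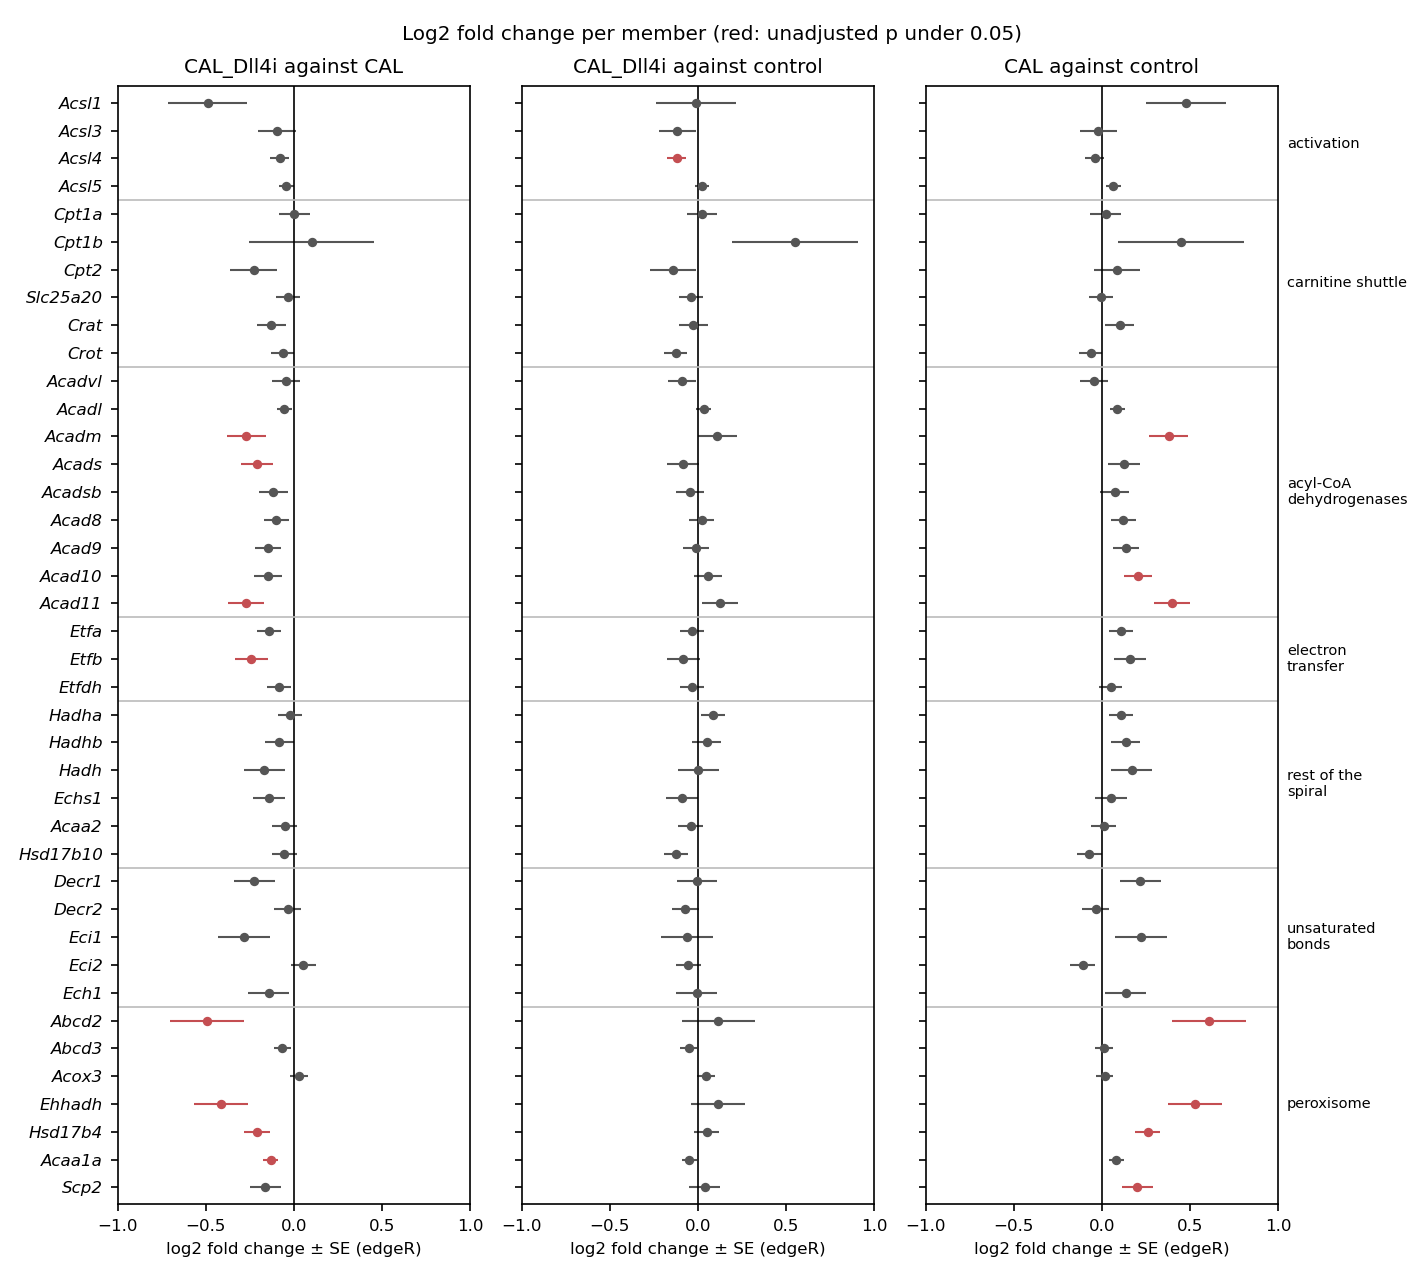
Log2 fold change of each member (edgeR) in CAL_Dll4i against CAL, CAL_Dll4i against control and CAL against control, by step. Bars are an SE derived from the F statistic of edgeR's test, and red marks an unadjusted p under 0.05. Red points are all below 0 in the left panel (8 members) and all above 0 in the right panel (7 members), with 1 in the middle panel (Acsl4).

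Activation begins with the long chain acyl-CoA synthetases, of which Acsl1 is the main form in fat cells. Here and below, values per library are CPM in the order of replicates 1 to 4. Acsl1 had 230.2, 294, 296 and 256 CPM in CAL_Dll4i, 417, 300.1, 373 and 419 in CAL, and 368, 236, 324 and 156 in control. Every CAL library lay above every CAL_Dll4i library, and control overlapped with both. Estimates were -0.49 ± 0.23 (SE) in CAL_Dll4i against CAL (adjusted p = 0.674, edgeR) and 0.48 ± 0.23 in CAL against control (adjusted p = 0.360). Acsl5, a synthetase of mitochondria and endoplasmic reticulum, was the steadiest member, with a highest library 1.11 times its lowest, where for Acsl1 this ratio was 2.68. The TPM ratio of Acsl1 to Acsl5 was 1.10 ± 0.140 in CAL_Dll4i, 1.49 ± 0.222 in CAL and 1.12 ± 0.363 in control (SD, n = 4 each).

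Acsl4, which prefers arachidonic acid, had 149, 130.5, 129 and 141 CPM in CAL_Dll4i, 141, 142, 153 and 144 in CAL, and 157, 143, 147 and 149 in control. Its control and CAL_Dll4i ranges overlapped. It had the smallest p of a member in CAL_Dll4i against control, at -0.12 ± 0.05 on the log2 scale (adjusted p = 0.714, edgeR). Acsl3, a synthetase of lipid droplets, averaged 31.8 ± 3.02 CPM in CAL_Dll4i, 34.0 ± 2.75 in CAL and 34.5 ± 5.06 in control (SD, n = 4 each). Over these 4 synthetases the median log2 fold change was 0.02 in CAL against control and -0.09 in CAL_Dll4i against CAL.

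The carnitine shuttle carries long chains into mitochondria, and none of its 6 genes had an unadjusted p under 0.05 in any comparison. Cpt1a, the rate-limiting outer membrane enzyme in most tissues, had 265, 289.8, 213 and 286 CPM in CAL_Dll4i, 256, 277.5, 267 and 251 in CAL, and 255, 261, 241 and 281 in control. The groups overlapped, and estimates lay between 0.00 and 0.02 on the log2 scale in all 3 comparisons. Cpt1b had 6.625, 6.28, 17.2 and 7.49 CPM in CAL_Dll4i, 10.4, 11.9, 4.87 and 7.83 in CAL, and 6.78, 5.68, 8.25 and 4.98 in control. Its 3 highest libraries were those with skeletal muscle markers.

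Cpt1b (chr15:89416405-89425862) had a log2 fold change of 0.55 ± 0.36 in CAL_Dll4i against control, and of 0.08 without CAL_Dll4i replicate 3 and 0.08 without the 3 libraries with muscle markers. The TPM ratio of Cpt1a to Cpt1b was 8.33 in CAL_Dll4i replicate 3, 16.5 and 15.7 in CAL replicates 1 and 2, and 19.6 to 38.0 in the others. Counts of Cpt1b may be uncertain, because 92.1% of the 75-base windows along its longest coding transcript also lie in Gm44502, a GENCODE gene on the same strand. Whether the deposited counts used an annotation with Gm44502 was not checked.

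**Figure D4:**
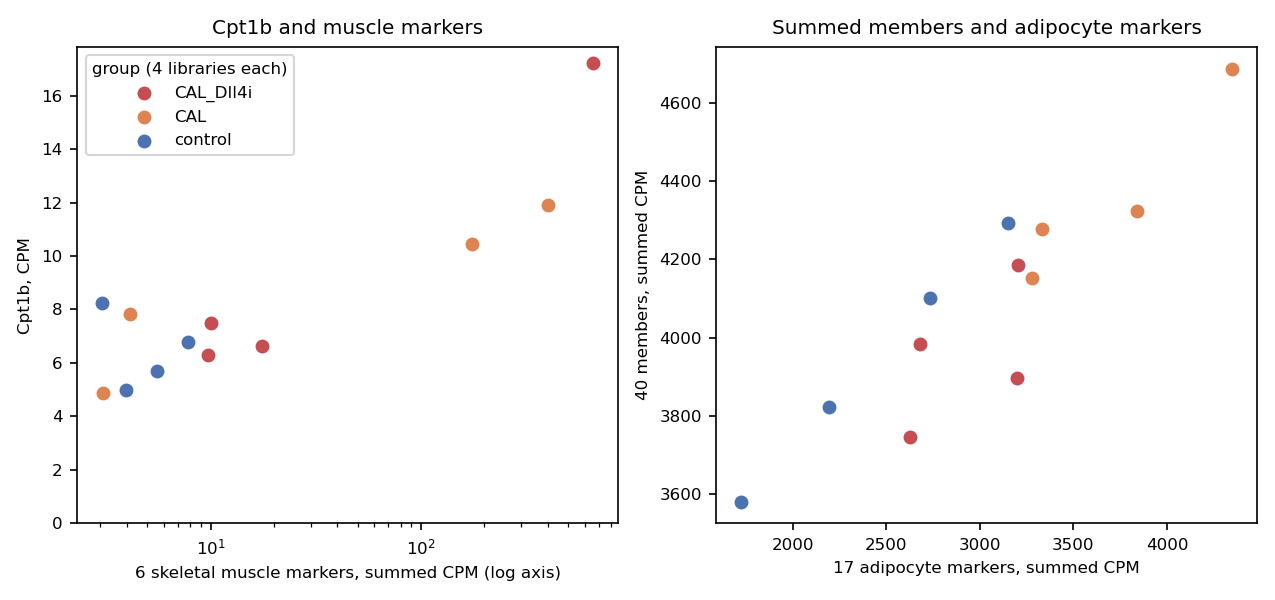
Left, Cpt1b in CPM against the summed CPM of 6 skeletal muscle markers (log axis) per library; right, the summed CPM of the 40 members against that of 17 adipocyte markers per library. The 3 libraries with the most muscle marker RNA have the 3 highest Cpt1b values (17.2, 11.9 and 10.4 CPM), and CAL replicate 4 is highest and control replicate 4 lowest on both axes of the right panel.

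Crot, the carnitine octanoyltransferase of peroxisomes, had 85.0, 82.5, 93.35 and 88.8 CPM in CAL_Dll4i, 87.4, 81.9, 95.8 and 100.2 in CAL, and 101.5, 95.0, 91.5 and 93.5 in control. Control replicates 1, 2 and 4 were above every CAL_Dll4i library, the last by a narrow margin, and control replicate 3 was not. CAL_Dll4i against control gave -0.13 ± 0.07 (adjusted p = 0.716, edgeR). Cpt2, the inner membrane transferase, averaged 56.5 ± 3.35 CPM in CAL_Dll4i, 66.1 ± 8.98 in CAL and 62.2 ± 12.6 in control. The carrier Slc25a20 averaged 47.9 ± 3.74, 49.0 ± 2.29 and 49.2 ± 3.19 CPM in the same groups, and Crat, which handles acetyl groups, 91.0 ± 4.60, 99.4 ± 7.84 and 92.7 ± 10.5 CPM (SD, n = 4 each).

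Acyl-CoA dehydrogenases open each turn of the mitochondrial cycle, and 8 of the 9 had positive estimates in CAL against control, with a median of 0.13. All 9 had negative estimates in CAL_Dll4i against CAL, with a median of -0.15. Acad11 (chr9:104063724-104127656), which acts on very long chains, had 50.4, 58.8, 56.2 and 53.6 CPM in CAL_Dll4i, 67.3, 59.9, 63.9 and 73.1 in CAL, and 53.4, 45.4, 59.2 and 42.6 in control. All 4 CAL libraries were above all 8 others, by a narrow margin at CAL replicate 2. The share of all genes with this pattern was not computed. CAL against control gave a log2 fold change of 0.40 ± 0.10, with adjusted p = 0.166 by edgeR, 0.0192 by DESeq2 and 0.0436 by voom. In CAL_Dll4i against CAL it was -0.27 ± 0.10 (adjusted p = 0.659, edgeR). Of its 75-base windows, 12.6% also lie in the overlapping genes Ackr4 and Gm28305.

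Acadm (chr3:153922353-153944643), whose promoter is printed above, had 132, 164, 145 and 140.3 CPM in CAL_Dll4i, 186, 175, 147 and 192 in CAL, and 144, 127, 155 and 112 in control. CAL replicate 3 lay among the other groups, and the other CAL libraries were above them all. On the log2 scale the difference was 0.38 ± 0.11 in CAL against control (adjusted p = 0.194 by edgeR and 0.0447 by DESeq2) and -0.27 ± 0.11 in CAL_Dll4i against CAL (adjusted p = 0.659, edgeR). Acad10 had 11.4, 10.4, 11.6 and 10.8 CPM in CAL_Dll4i, 12.3, 11.98, 12.4 and 12.4 in CAL, and 10.5, 10.6, 9.51 and 11.96 in control. CAL libraries were the highest 4 of the 12, and control replicate 4 came next. For Acad10 too, the share of all genes with this pattern was not computed. Its log2 fold change was 0.20 ± 0.08 in CAL against control (adjusted p = 0.282, edgeR), and 14.6% of its windows are shared with the related gene Acad12.

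Acads, the short chain enzyme, had 18.3, 19.1, 17.6 and 17.8 CPM in CAL_Dll4i, 20.4, 19.99, 21.4 and 22.6 in CAL, and 19.1, 19.6, 22.4 and 16.2 in control. CAL was above CAL_Dll4i throughout and overlapped with control, with a log2 fold change of -0.21 ± 0.09 in CAL_Dll4i against CAL (adjusted p = 0.664, edgeR). Acadl and Acadvl, the long and very long chain enzymes, differed less. Acadl averaged 188 ± 8.05 CPM in CAL_Dll4i, 196 ± 6.73 in CAL and 184 ± 6.23 in control (SD, n = 4 each). Acadvl, the exception with a negative estimate in CAL against control (-0.05 ± 0.08), has 42.9% of its exon bases overlapped by Dvl2 on the opposite strand, and whether counting used strand is not given.

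The remaining dehydrogenases act mainly outside fatty acid oxidation. Acad8 and Acadsb serve the breakdown of branched amino acids, and Acad9 is also an assembly factor of respiratory complex I. Acad8 had 28.5, 33.1, 27.6 and 30.2 CPM in CAL_Dll4i, 31.4, 31.8, 32.3 and 32.5 in CAL, and 29.7, 30.5, 31.2 and 26.2 in control. CAL was above control throughout, by 0.12 ± 0.07 on the log2 scale (adjusted p = 0.457, edgeR), and overlapped with CAL_Dll4i. Acad9 averaged 36.6 ± 1.82 CPM in CAL_Dll4i, 40.6 ± 3.61 in CAL and 36.9 ± 2.09 in control, and Acadsb 68.0 ± 4.05, 73.7 ± 5.71 and 70.1 ± 7.72 CPM (SD, n = 4 each).

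Electrons from these enzymes pass through the Etfa and Etfb dimer to Etfdh, which reduces ubiquinone. Etfb (chr7:43444072-43457800) had 28.2, 33.6, 30.0 and 28.7 CPM in CAL_Dll4i, 34.4, 34.6, 34.4 and 39.0 in CAL, and 33.1, 29.4, 37.1 and 28.0 in control. Every CAL library was above every CAL_Dll4i library, while control overlapped with both. In CAL_Dll4i against CAL the log2 fold change was -0.24 ± 0.09 (adjusted p = 0.659, edgeR). Of its windows, 66.3% also lie in Gm45233 on the same strand. Etfa averaged 152 ± 2.75 CPM in CAL_Dll4i, 167 ± 18.5 in CAL and 155 ± 8.40 in control, and Etfdh 122 ± 7.34, 129 ± 6.73 and 125 ± 10.5 CPM (SD, n = 4 each). The TPM ratio of Etfa to Etfb stayed within 2.73 to 3.28 over the 12 libraries.

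Hydration, the later dehydrogenation and thiolysis are done by the trifunctional protein on long chains and by Echs1, Hadh and Acaa2 on shorter ones. Hadha had 230.7, 273, 249.6 and 264 CPM in CAL_Dll4i, 251, 265, 246 and 270.2 in CAL, and 228, 243, 267 and 221 in control. The groups overlapped, with a log2 fold change of 0.09 ± 0.07 in CAL_Dll4i against control (adjusted p = 0.803, edgeR). The estimate for Hadha rested on single libraries: it was 0.048 without control replicate 4, 0.051 without CAL_Dll4i replicate 2, 0.13 without CAL_Dll4i replicate 1 and 0.14 without control replicate 3. Hadhb, the β subunit, averaged 178 ± 9.36 CPM in CAL_Dll4i, 189 ± 13.4 in CAL and 172 ± 21.8 in control (SD, n = 4 each). The divergent pair kept a TPM ratio of Hadha to Hadhb between 0.977 and 1.15 in every library, with means of 1.08 ± 0.0459 in CAL_Dll4i, 1.04 ± 0.0670 in CAL and 1.06 ± 0.0697 in control (SD, n = 4 each). Of the windows of Hadhb, 57.2% also lie in the pseudogenes Gm13910 and Gm9108, so its counts are uncertain.

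Hsd17b10, a short chain dehydrogenase that is also a subunit of mitochondrial RNase P, had 37.0, 42.0, 35.1 and 41.8 CPM in CAL_Dll4i, 37.6, 39.9, 41.4 and 42.9 in CAL, and 41.4, 42.9, 44.4 and 41.2 in control. Its CAL_Dll4i libraries split into a low and a high pair, the high pair within the control range. In CAL_Dll4i against control the estimate was -0.12 ± 0.07 (adjusted p = 0.722, edgeR), and it was -0.078 without CAL_Dll4i replicate 3. Hadh averaged 30.7 ± 2.03 CPM in CAL_Dll4i, 34.5 ± 5.44 in CAL and 30.7 ± 4.08 in control. Echs1 averaged 56.9 ± 3.41, 62.7 ± 8.88 and 60.5 ± 2.87 CPM in these groups, and Acaa2 49.0 ± 3.94, 50.8 ± 2.69 and 50.4 ± 3.26 CPM (SD, n = 4 each). No gene of this step had an unadjusted p under 0.05 in any comparison.

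Unsaturated chains need extra isomerases and reductases, and 3 of these 5 genes had positive estimates in CAL against control. Eci1, a mitochondrial enoyl-CoA isomerase, had 10.4, 11.4, 11.7 and 10.1 CPM in CAL_Dll4i, 12.8, 11.9, 12.4 and 16.0 in CAL, and 12.7, 10.2, 14.0 and 8.60 in control. CAL was above CAL_Dll4i throughout, with CAL replicate 4 well above the rest, at a log2 fold change of -0.28 ± 0.15 (adjusted p = 0.688, edgeR). Decr1, the mitochondrial dienoyl-CoA reductase, averaged 82.2 ± 5.22 CPM in CAL_Dll4i, 95.9 ± 11.7 in CAL and 82.4 ± 13.6 in control. Its peroxisomal relative Decr2 averaged 19.1 ± 0.852, 19.5 ± 2.11 and 20.02 ± 0.595 CPM, and the dienoyl-CoA isomerase Ech1 96.4 ± 10.4, 106 ± 12.2 and 96.8 ± 15.4 CPM (SD, n = 4 each). Eci2, an isomerase of peroxisomes and mitochondria, averaged 105 ± 10.6 CPM in CAL_Dll4i, 101 ± 4.91 in CAL and 109 ± 6.08 in control. None of these 5 genes had an unadjusted p under 0.05 in any comparison.

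Of the 7 peroxisomal members, 4 were higher at an unadjusted p under 0.05 in CAL against control, where 7.01% of all genes were, and 4 were lower in CAL_Dll4i against CAL, where 2.95% were. Among 23 other peroxisomal genes these counts were 5 and 6. All 7 members had positive estimates in CAL against control, with a median of 0.20, and 6 of 7 negative ones in CAL_Dll4i against CAL, with a median of -0.16. Abcd2 (chr15:91145871-91192007), a transporter of very long chain acyl-CoA into peroxisomes that is abundant in fat, had 85.1, 110.1, 101 and 81.5 CPM in CAL_Dll4i, 131, 107, 116 and 178 in CAL, and 105, 74.7, 108 and 60.6 in control. CAL replicate 4 was far above the other CAL libraries, and control replicates 2 and 4 were the lowest of all. Fold changes on the log2 scale were 0.61 ± 0.21 in CAL against control (adjusted p = 0.238, edgeR) and -0.49 ± 0.21 in CAL_Dll4i against CAL (adjusted p = 0.665, edgeR). Abcd3, a transporter of branched and dicarboxylic chains, averaged 157 ± 6.95 CPM in CAL_Dll4i, 165 ± 9.43 in CAL and 163 ± 5.26 in control (SD, n = 4 each).

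Hydration and dehydrogenation in peroxisomes are done by Ehhadh and Hsd17b4, which work through opposite stereoisomers. Ehhadh (chr16:21761285-21787834) had 21.3, 26.0, 26.8 and 20.4 CPM in CAL_Dll4i, 32.1, 28.8, 24.7 and 40.2 in CAL, and 24.3, 19.5, 24.7 and 18.8 in control. CAL replicate 3 lay within the other groups, and the other CAL libraries were above them. Estimates on the log2 scale were 0.53 ± 0.15 in CAL against control (adjusted p = 0.194 by edgeR and 0.0366 by DESeq2) and -0.41 ± 0.15 in CAL_Dll4i against CAL (adjusted p = 0.659, edgeR), the last being -0.27 without CAL replicate 4. Hsd17b4 (chr18:50128201-50196270) had 222, 257, 226 and 235 CPM in CAL_Dll4i, 293, 266, 248 and 281 in CAL, and 242.5, 219, 244 and 204 in control. All CAL libraries were above all control libraries, and CAL_Dll4i replicate 2 overlapped with CAL. Its log2 fold change was 0.26 ± 0.07 in CAL against control (adjusted p = 0.185 by edgeR and 0.0422 by DESeq2) and -0.21 ± 0.07 in CAL_Dll4i against CAL (adjusted p = 0.659, edgeR).

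**Figure D5:**
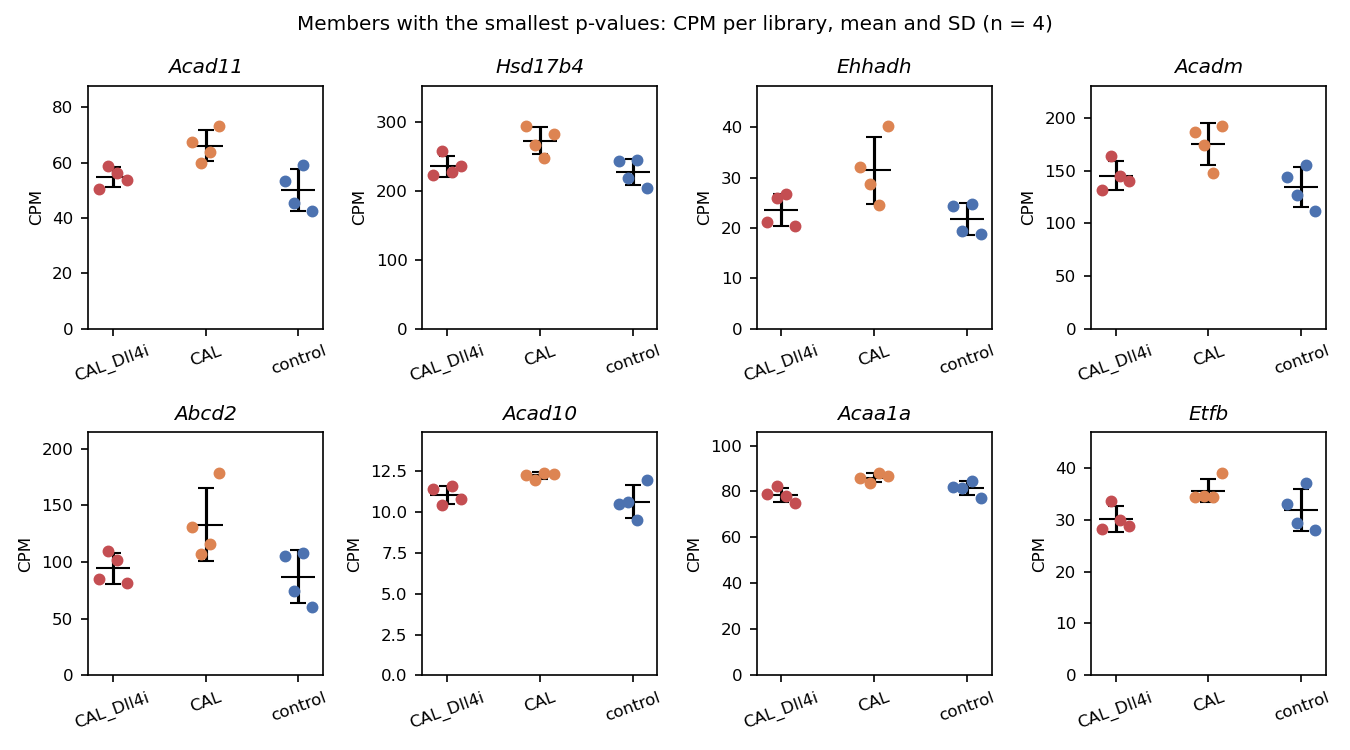
CPM of 8 members in each library of CAL_Dll4i, CAL and control grafts, with the mean and SD of each group (n = 4); every axis starts at 0. All 4 CAL libraries of Acad11 lie above the other 8 (59.9 to 73.1 CPM in CAL, up to 58.8 in CAL_Dll4i and up to 59.2 in control). The share of all genes with this pattern was not computed. The groups overlap for Ehhadh, Acadm and Abcd2.

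Thiolysis in peroxisomes is done by Acaa1a and, for branched chains, by the thiolase encoded by Scp2. Acaa1a (chr9:119341028-119350296) had 78.8, 82.5, 78.2 and 74.99 CPM in CAL_Dll4i, 85.8, 83.5, 88.1 and 86.9 in CAL, and 81.9, 81.7, 84.5 and 77.3 in control. Every CAL library was above every CAL_Dll4i library, and control overlapped with both. It had the smallest p of a member in CAL_Dll4i against CAL, at -0.13 ± 0.04 (adjusted p = 0.659, edgeR), and 27.3% of its windows are shared with its near copy Acaa1b. Scp2 had 153, 174, 174 and 173 CPM in CAL_Dll4i, 193, 170.5, 182 and 209 in CAL, and 170.5, 153, 189 and 145 in control. The groups overlapped, with a log2 fold change of 0.20 ± 0.09 in CAL against control (adjusted p = 0.321, edgeR), and 36.7% of its windows lie in other loci, among them Scp2-ps2. Acox3, an oxidase of branched chains, averaged 134 ± 6.78 CPM in CAL_Dll4i, 131 ± 5.83 in CAL and 130 ± 5.84 in control (SD, n = 4 each).

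Other genes of the pathway were counted by list. In CAL against control, the numbers higher and lower at an unadjusted p under 0.05 were 2 and 1 of 9 for uptake and binding, 5 and 0 of 23 for other peroxisomal genes, 5 and 0 of 11 for use of the products, and 4 and 2 of 15 for control of the pathway, where 7.01% of all genes were higher and 7.57% lower. In CAL_Dll4i against CAL they were 2 and 0, 0 and 6, 0 and 5, and 1 and 2 in the same lists, where 4.47% of all genes were higher and 2.95% lower. In CAL_Dll4i against control they were 0 and 0, 0 and 0, 1 and 1, and 1 and 1, where 3.86% were higher and 3.06% lower. edgeR called none of these genes at an adjusted p under 0.05.

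The coactivator gene Ppargc1a averaged 6.44 ± 2.26 CPM in CAL and 2.40 ± 0.643 in control, at a log2 fold change of 1.42 ± 0.35 (adjusted p = 0.166 by edgeR and 0.00467 by DESeq2). Cpt1c, the brain form of the transferase, averaged 13.1 ± 1.67 CPM in CAL and 18.96 ± 2.30 in control, at -0.54 ± 0.13 (adjusted p = 0.166 by edgeR and 0.0152 by DESeq2). In both genes all 4 CAL libraries stood apart from all 4 control libraries, in opposite directions. Of all genes, 3.61% stood so higher in CAL and 3.75% lower. CAL replicates 1 and 2 held skeletal muscle marker RNA (175 and 403 CPM), and its part in the Ppargc1a values was not tested. Oxct1, which activates ketone bodies for use, averaged 289 ± 15.4 CPM in CAL and 246.5 ± 14.0 in control (0.23 ± 0.06), and the fatty acid transporter Slc27a1 109 ± 7.17 and 90.65 ± 9.17 CPM (0.27 ± 0.07).

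In CAL_Dll4i against CAL the smallest p-values were those of Pex16, a peroxisome assembly gene, with 17.1 ± 1.07 CPM in CAL_Dll4i and 21.7 ± 2.05 in CAL (-0.34 ± 0.10), and of Cpt1c, with 17.5 ± 2.98 and 13.1 ± 1.67 CPM (0.42 ± 0.13). Next came Ppard, which encodes the nuclear receptor PPARδ, with 21.7 ± 3.57 CPM in CAL_Dll4i and 16.5 ± 2.71 in CAL (0.39 ± 0.13). Phyh, the first enzyme of phytanic acid breakdown, had 64.1 ± 3.22 and 72.2 ± 5.53 CPM in these groups (-0.17 ± 0.06). In CAL_Dll4i against control, genes at an unadjusted p under 0.05 included Ppargc1a (0.84 ± 0.35), the thioesterase gene Acot13 (-0.20 ± 0.09) and Prkaa1, a catalytic subunit of AMPK (-0.11 ± 0.05). None passed edgeR's test.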

How the data were processed

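RNA was measured in 12 libraries, 4 each from CAL_Dll4i, CAL and control grafts. Libraries were made from Trizol-extracted total RNA by exon capture (SureSelectXT RNA Direct), per the labels' protocols. HISAT2, StringTie and the build mm10 are named without versions in the submitters' processing notes. The authors deposited estimated counts (whole numbers, so that rounding changed 0 values), FPKM and TPM for 19547 genes, per the file headers. The deposited TPM values, scaled by the authors for length and depth, sum to 995156 to 998891 per library. The deposited FPKM values were used only to check that genes rank as in TPM. Depth was 55883051 to 70804141 counts per library.

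Counts were scaled by TMM and filtered with filterByExpr in edgeR 4.0.16 (R 4.3.3), leaving 18551 genes. A robust quasi-likelihood fit of all 12 libraries in edgeR, with 1 coefficient for each group, gave p-values that were adjusted by Benjamini-Hochberg over all genes, and genes were called at 0.05. CPM values are TMM-scaled. Each SE was derived from that fit's test, as the absolute log2 fold change over the square root of the F statistic. It is not an output of edgeR. Other settings tried were upper-quartile and RLE scaling, DESeq2 1.42.0, limma 3.58.1 (voom with sample weights), a filter at 1 CPM in 4 libraries or none, only the groups compared, a replicate block, libraries left out, and 3 libraries with skeletal muscle RNA (markers over 5 times the median) left out. The code was tested on simulated data. The share of 75-base exon windows found in other genes was computed from GENCODE M21. Promoters and positions are RefSeq GRCm38.p6. Figures used Python 3.11.15 and matplotlib 3.10.9.

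The members and gene lists were chosen with earlier results of these data known. Values per library are given for the 6 members with the smallest p in each comparison and for members called by DESeq2 or voom, with some others added after their values were seen; other pathway genes are named at an unadjusted p under 0.05, at most 4 per comparison. The values of a further pathway gene that this rule names are not reported here.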

Additional observations from a re-analysis of the deposited data

Results flagged for a closer look

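Of 120 groups of 4 values (40 members in 3 groups), 3 had a library far from the others. Chance would give about 5% if the groups were independent. Members measured in the same libraries are not, so the 3 cannot be set against that rate. Cpt1b stood at 17.2 CPM in CAL_Dll4i replicate 3, against 6.28 to 7.49 CPM in the other CAL_Dll4i libraries, and this library also had the highest sum of skeletal muscle markers (659 CPM). Etfb stood at 39.0 CPM in CAL replicate 4, against 34.4 to 34.6 CPM in the other CAL libraries. Scp2 stood at 153 CPM in CAL_Dll4i replicate 1, against 173 to 174 CPM in the other CAL_Dll4i libraries. The cause was tested for none of these.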

How the results depend on the processing

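The count of called members was 0 in all 3 comparisons under each alternative with edgeR. In CAL against control DESeq2 called 4 and voom with sample weights 1. At an unadjusted p under 0.05, CAL against control gave 7 members, 14 with voom and 5 to 17 with a library left out (17 without control replicate 3). CAL_Dll4i against CAL gave 8, 13 with only the 2 groups fitted and 2 to 12 with a library left out (2 without CAL replicate 4, 3 without CAL_Dll4i replicate 1 or 4, 5 without CAL_Dll4i replicate 3). CAL_Dll4i against control gave 1, 0 with upper-quartile scaling, with the filter at 1 CPM and with DESeq2, 2 with voom, and 0 to 3 with a library left out (0 without control replicate 1 or 4, CAL replicate 2 or 4 or CAL_Dll4i replicate 2 or 4, and 3 without control replicate 3). With a replicate block the count in CAL_Dll4i against CAL was 5. Replicate numbers gave no sign of pairing: of 12 same-numbered pairs, 2 had correlated deviations above 0.1 (range -0.37 to 0.14). Differently numbered pairs reached 0.42 (control replicate 3 with CAL_Dll4i replicate 2). Such correlations over all genes cannot show that pairing is absent.

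The median over members in CAL_Dll4i against control was -0.02, 0.025 with voom, and -0.062 without control replicate 4 to 0.019 without control replicate 3. It was 0.06 to 0.15 in CAL against control and -0.14 to -0.07 in CAL_Dll4i against CAL with a library left out, with no change of sign. Without the 3 libraries with skeletal muscle RNA the count was 7 and the median 0.12 in CAL against control, 8 and -0.16 in CAL_Dll4i against CAL, and 1 and -0.01 in CAL_Dll4i against control. That fit kept only replicates 3 and 4 of CAL, and CAL replicate 4 had the highest value of 21 members. Of 162 values of the named members under other settings, 157 kept their sign and side of the threshold and 5 passed it (4 with DESeq2, 1 with voom), and all 216 with a library left out kept both. Cpt1b in CAL_Dll4i against control ranged from 0.08 to 0.70. The cause of these shifts was not tested. The lowest count of a member in a library was 330.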
